A study of Mus musculus with 2 samples.

Results

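The miR-99/100 and miR-125 families were represented by 10 of the 831 mouse entries of the arrays. An entry was included when any miRNA it names has the stem miR-99a, miR-99b, miR-100, miR-125a or miR-125b, and earlier results of these data were known when these stems were chosen. They were the -5p arms mmu-miR-99a-5p, mmu-miR-99b-5p, mmu-miR-100-5p, mmu-miR-125a-5p and mmu-miR-125b-5p (mmu, for mouse, is left out of most names from here on), and the -3p arms miR-99a-3p, miR-99b-3p, miR-125a-3p, miR-125b-1-3p and miR-125b-2-3p. Each of the 10 entries names a single miRNA, and none of the 831 entries names miR-100-3p.

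The RNA came from microvesicles (MVs), membrane particles that cells shed, collected by ultracentrifugation from the medium of cultured mouse mesenchymal stem cells (MSCs). The MSCs had been grown from bone marrow of C57BL/6 males that were 4 weeks old. EPO-MVs (1 array) came from MSCs kept for 48 h with erythropoietin (EPO, the hormone that drives red blood cell production) at 100 IU/ml according to the labels, and MSC-MVs (1 array) came from MSCs kept for 48 h in the same medium without it. Both media contained fetal bovine serum, and RNA of bovine vesicles with the same miRNA sequence cannot be told apart from mouse RNA by such an array. With 1 array per group no difference between the arrays had a replicate check, and no test was possible. EPO and the array itself cannot be told apart as sources of a difference. The paper reports replicated measurements of a few miRNAs outside these families, miR-200c-3p among them, as higher in EPO-MVs.

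A miRNA is a short RNA that guides the Argonaute protein to messenger RNAs, mainly by pairing of its seed, bases 2 to 8 from the 5′ end, and lowers their translation or stability. Its gene makes a hairpin from which the -5p and the -3p arm can be cut, and usually 1 arm is retained as the working strand. The miR-99/100 family is known for targets in growth signalling such as the kinase MTOR and the receptor IGF1R. The miR-125 family descends from lin-4, the developmental timing miRNA of worms, and is known for targets such as the tumour suppressor p53 and the cell death protein BAK1. In bone marrow stroma, miR-125b is known as a restraint on bone formation. Genes of these families lie in clusters together with let-7, a further family that promotes differentiation.

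The mature sequences of the -5p members, from RefSeq with the mouse assembly GRCm38.p6, are given with the seed in capitals, because the seed divides them into 2 families and because small differences outside it separate members whose ratios differed.
miR-100-5p: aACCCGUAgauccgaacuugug
miR-99a-5p: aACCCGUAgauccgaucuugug
miR-99b-5p: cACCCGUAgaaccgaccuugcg
miR-125a-5p: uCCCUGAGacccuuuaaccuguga
miR-125b-5p: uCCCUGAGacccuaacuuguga
The seed ACCCGUA was shared by the 3 miR-99/100 members and by no other mature miRNA of the RefSeq table, and it pairs with the site UACGGGU. The seed CCCUGAG of both miR-125 members pairs with CUCAGGG. With positions counted from the 5′ end, miR-100-5p and miR-99a-5p differed at 1 of 22 bases (A16U, the base of miR-100-5p first). From miR-99b-5p, miR-100-5p differed at 4 bases (A1C, U11A, A16C and U21C) and miR-99a-5p also at 4 (A1C, U11A, U16C and U21C). The miR-125 members had their first 13 bases in common, and miR-125a-5p was longer, with 24 bases against 22. Whether the probes of members this similar also capture each other's RNA was not tested.

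These RNAs come from 6 genes on 3 chromosomes. Mir100, Mirlet7a-2 and Mir125b-1 lie next to each other on chromosome 9, within the long noncoding RNA gene Mir100hg. The mature miR-100-5p lies there at chr9:41531437-41531458 and the mature miR-125b-5p at chr9:41581940-41581961, both on the plus strand of GRCm38.p6. Mir99a, Mirlet7c-1 and Mir125b-2 are neighbours on chromosome 16, with miR-99a-5p at chr16:77598940-77598961 and the second copy of miR-125b-5p at chr16:77646279-77646300. Mir99b, Mirlet7e and Mir125a lie within the protein-coding gene Spaca6 on chromosome 17, with miR-99b-5p at chr17:17830194-17830215 and miR-125a-5p at chr17:17830817-17830840. The last cluster is compact, with 563 bases between the mature sequences of its outer genes, against 50447 bases on chromosome 9 and 47281 on chromosome 16.

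The hairpins of Mir99a and Mir125b-1 are printed with both mature arms in capitals, as the arms of these hairpins differed most in their ratios among the members. For Mir125b-1 the -5p value is that of miR-125b-5p, whose entry also reads Mir125b-2.
Mir99a: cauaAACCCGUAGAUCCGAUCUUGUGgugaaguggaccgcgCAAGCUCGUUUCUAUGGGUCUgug
Mir125b-1: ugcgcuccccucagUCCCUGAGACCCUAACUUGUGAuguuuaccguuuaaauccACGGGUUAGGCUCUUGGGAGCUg
RefSeq places them at chr16:77598936-77599000 and chr9:41581926-41582002 of GRCm38.p6, on the plus strand. In each, the -5p arm stands first and the -3p arm follows after the loop.

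The deposited value of an entry is a normalized intensity on a linear scale, with a median over all entries of 0.206 for the array of EPO-MVs and of 0.195 for that of MSC-MVs. Every value was a whole multiple, to within 0.001, of the smallest value of its array, called a step here, and a normalized intensity of 1 was worth 471 steps in the EPO-MV sample and 447 in the MSC-MV sample. The ratio is the EPO-MV value divided by the MSC-MV value, and an entry was counted as past the threshold when 1 array exceeded the other by 1.5-fold or more. Because dim entries gave wider ratios, the 831 entries were also split by their log2 intensity, averaged over the arrays, into 4 brightness classes of nearly equal size. Brightness depends on the probe as well as on the RNA, so it tells how well a ratio is measured and is not used to rank miRNAs by abundance.

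Of the 10 member entries, 1 was past 1.5-fold, miR-100-5p, which was lower in EPO-MVs. Among all 831 entries 25.4% were past this threshold and 7.58% were past it as lower in EPO-MVs. Among the 208 entries of the brightest class, which held all 5 of the -5p members, 8.65% were past it and 7.69% as lower. At a threshold of 1.2-fold, 4 members and 55.4% of all entries were past it. Of the -5p members, 5 of 5 had a lower value in EPO-MVs than in MSC-MVs. However, miR-125a-5p was higher in EPO-MVs with quantile normalization, after removal of the lowess trend and in the ratio of steps. In the brightest class 131 of 208 entries (63%) were lower in EPO-MVs by any amount, and among all entries 43.9% were. Among the -5p entries of the brightest class, 56 of 80 (70.0%) were, with a median log2 ratio of -0.16. The median log2 ratio was -0.28 for the -5p members and 0.14 for the -3p members, beside 0.05 for all entries and -0.09 for the brightest class.

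**Figure D1:**
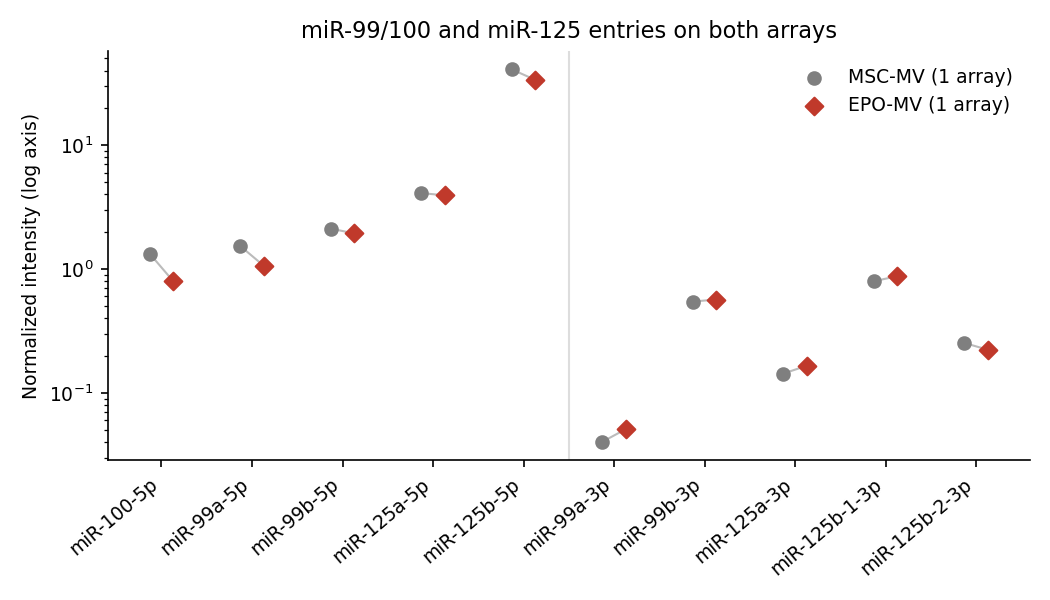
Normalized intensity (log axis) of the 10 member entries, with MSC-MVs as grey circles and EPO-MVs as red diamonds, 1 array each, and no error bars because there are no replicates. The EPO-MV point lies clearly under the MSC-MV point for miR-100-5p (0.796 against 1.33) and miR-99a-5p (1.06 against 1.53), while the points of most other pairs lie at similar heights.

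In the miR-99/100 family, mmu-miR-100-5p had a normalized intensity of 0.796 in EPO-MVs against 1.33 in MSC-MVs. This was the widest difference of any member, a ratio of 0.599, or a level 1.67-fold higher in MSC-MVs. In steps the values were 375 and 594, far from the smallest value of either array. Of the 208 entries in the brightest class, 6 had a lower ratio than miR-100-5p, which was the dimmest entry of that class (208 in the order of brightness). In the next dimmer class 9.66% of the entries were past 1.5-fold. The ratio of miR-100-5p was between 0.579 and 0.631 under the 7 alternatives that can change a ratio. These were 6 scalings, the ratio of steps among them, and a pseudocount, and miR-100-5p was past 1.5-fold in each.

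mmu-miR-99a-5p, which differs from miR-100-5p at a single base, had 1.06 in EPO-MVs against 1.53 in MSC-MVs (500 and 685 steps). Its ratio of 0.693 was the second lowest of the members and did not reach the threshold. Under the same 7 alternatives it was between 0.669 and 0.733, lower in EPO-MVs in each but never past 1.5-fold. In the brightest class 21 entries had a lower ratio. mmu-miR-99b-5p had 1.94 in EPO-MVs against 2.12 in MSC-MVs (912 and 947 steps), a ratio of 0.914.

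The members of this seed family therefore had unequal ratios although they pair with the same site. On the log2 scale, miR-100-5p was 0.21 below miR-99a-5p (a difference of -0.21), and miR-99a-5p was 0.40 below miR-99b-5p (-0.40). Such a difference between entries is not altered by any scaling that multiplies an array by 1 factor. After quantile normalization and after removal of the lowess trend, the difference between miR-99a-5p and miR-99b-5p was -0.32 and -0.43, and the order of the 3 members was kept in both. The log2 ratios of all entries in the brightest class had a standard deviation of 0.30 across entries. That is the spread of single entries, not of differences between them, and it is not a replicate error.

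In the miR-125 family, mmu-miR-125b-5p was the brightest member, with 33.6 in EPO-MVs against 40.9 in MSC-MVs (15822 and 18260 steps). It was the tenth brightest of the 831 entries, so dimness does not limit its ratio of 0.822. That ratio was within the threshold and depended on how bright entries are scaled, being 0.937 with quantile normalization and 0.958 after removal of the lowess trend. The entry reads RNA of the genes Mir125b-1 and Mir125b-2 together, because both make the same mature sequence. mmu-miR-125a-5p had 3.93 in EPO-MVs against 4.10 in MSC-MVs, a ratio of 0.959 and the closest to 1 of the -5p members.

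The direction of miR-125a-5p rested on the scaling. The entry had 1852 steps for EPO-MVs against 1832 for MSC-MVs, and the ratio of steps was 1.01. With quantile normalization the ratio was 1.06, and after removal of the lowess trend it was 1.04. Within the family, miR-125b-5p was 0.22 below miR-125a-5p on the log2 scale (-0.22), and 0.12 below it (-0.12) after removal of the lowess trend.

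**Figure D2:**
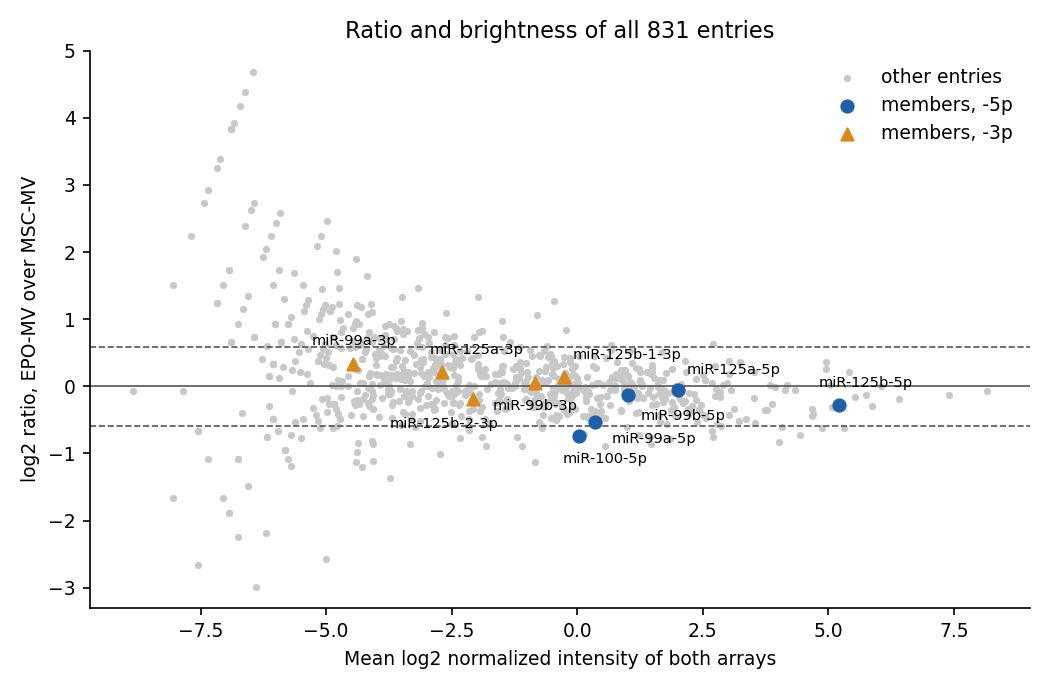
Log2 ratio of EPO-MV over MSC-MV against the mean log2 normalized intensity of both arrays for all 831 entries (grey), with the -5p members as blue circles and the -3p members as orange triangles, and dashed lines at 1.5-fold. The spread of the grey points widens to the left, where 61.1% of the dimmest class was past 1.5-fold, and among the members only miR-100-5p lies outside the dashed lines.

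The -3p arms, usually the minor products of these hairpins, were dimmer, with 3 of 5 entries in the third brightness class, 1 in the second and 1 in the dimmest. Of the 5, 0 were past 1.5-fold, beside 27.5% of all -3p entries. In the third, second and dimmest classes 9.66%, 22.1% and 61.1% of the entries were past it. The brightest was miR-125b-1-3p, with 0.875 in EPO-MVs against 0.796 in MSC-MVs, a ratio of 1.10. miR-99b-3p had 0.567 and 0.546, a ratio of 1.04, and miR-125a-3p had 0.166 and 0.143, a ratio of 1.16. For these 3 arms the EPO-MV value was the higher, and it remained so under the 7 alternatives.

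The -3p arm of the second miR-125b gene, miR-125b-2-3p, went the other way, with 0.223 in EPO-MVs against 0.253 in MSC-MVs (105 and 113 steps), a ratio of 0.882. It was the single -3p member with a lower value in EPO-MVs, and it was lower in all 7 alternatives. The -3p arms are where the arrays separate the 2 miR-125b genes, and on the log2 scale miR-125b-1-3p was 0.32 above miR-125b-2-3p. miR-99a-3p was the dimmest member, with 0.0510 in EPO-MVs against 0.0403 in MSC-MVs. These are 24 and 18 steps, so its ratio of 1.27 rests on a difference of few steps. It was 1.00 with quantile normalization and 1.01 after removal of the lowess trend.

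Of the 5 pairs of arms that share a hairpin, the -5p arm had the lower ratio in 5 with the deposited values, in 4 after removal of the lowess trend and in 3 with quantile normalization. The difference on the log2 scale was widest for Mir99a (-0.87, from miR-99a-5p at -0.53 and miR-99a-3p at 0.34). It was -0.42 for Mir125b-1, -0.27 for Mir125a, -0.18 for Mir99b and -0.10 for Mir125b-2. The pairs of Mir125b-1 and Mir125b-2 use the same -5p entry, miR-125b-5p, which reads both genes. They are therefore not independent, and neither is a difference between the arms of that hairpin alone. The pair of Mir125b-2 had the opposite order with quantile normalization (0.06) and after removal of the lowess trend (0.19), and the pair of Mir125a had it with quantile normalization (0.02). With the deposited values, brightness moved with this order. Among the 46 hairpins of the arrays whose -5p arm was in the brightest class and whose -3p arm was in a dimmer one, these 5 included, the -5p arm had the lower ratio in 31 (67.4%), and in 18 (39.1%) after removal of the lowess trend. Of all 206 hairpins with both arms, the -5p arm had the lower ratio in 113 (54.9%) with the deposited values. The brighter arm had the lower ratio in 131 (63.6%), and in 92 (44.7%) after removal of the lowess trend. The part of brightness in the differences between arms was not tested beyond these values.

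**Figure D3:**
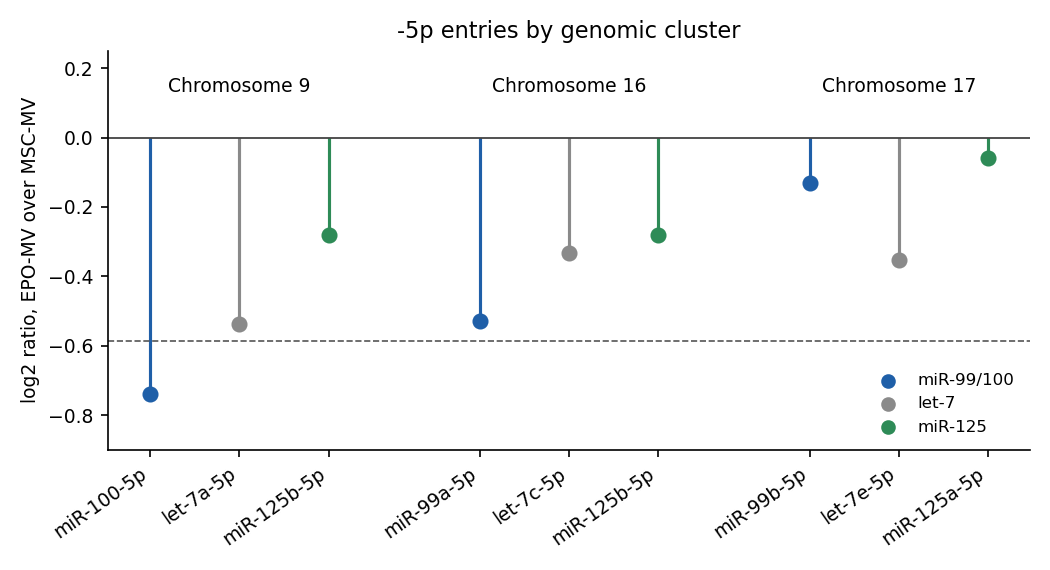
Log2 ratio of EPO-MV over MSC-MV for the -5p entries of the 3 genomic clusters, in their order on the chromosome, with miR-99/100 in blue, let-7 in grey and miR-125 in green, and a dashed line at 1.5-fold. The miR-125 entry is nearest to 0 in each cluster (-0.28, -0.28 and -0.06), and the value of miR-125b-5p appears in 2 clusters because its entry reads both genes. The miR-125a-5p value of -0.06 is above 0 with quantile normalization, after removal of the lowess trend and in the ratio of steps.

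The clusters also hold let-7 genes, whose entries were set beside the members. let-7a-5p had 4.36 in EPO-MVs against 6.33 in MSC-MVs, a ratio of 0.689. let-7c-5p had 4.75 and 5.98 (0.794), and let-7e-5p had 3.21 and 4.10 (0.782). Of the 6 entries with the stem let-7a, let-7c or let-7e, 5 were lower in EPO-MVs, beside 43.9% of all entries and 63% of the brightest class, and 0 were past 1.5-fold with the deposited values, beside 25.4% of all entries. let-7a-5p and let-7c-5p are also made from genes on other chromosomes, so of the -5p let-7 entries only let-7e-5p is particular to its cluster in the RefSeq table.

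Within each cluster the miR-125 member had the highest ratio of the -5p entries. On chromosome 9 the log2 ratio went from -0.74 for miR-100-5p to -0.54 for let-7a-5p and -0.28 for miR-125b-5p. On chromosome 16 it was -0.53 for miR-99a-5p, -0.33 for let-7c-5p and -0.28 for miR-125b-5p. On chromosome 17, let-7e-5p was lowest at -0.35, followed by miR-99b-5p at -0.13 and miR-125a-5p at -0.06. Entries of 1 cluster thus did not have 1 common ratio, even on chromosome 17 where the mature sequences of the outer genes are 563 bases apart. The difference between miR-100-5p and miR-125b-5p was -0.46 and lay between -0.66 and -0.42 with quantile normalization, the lowess trend removed and a pseudocount, and that between let-7e-5p and miR-125a-5p was -0.29 and lay between -0.31 and -0.29.

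The entries of miR-351, miR-670, miR-10a and miR-10b were also examined. Of these 7 entries, which include 3 -3p arms whose seeds differ from those of the members, 0 were past 1.5-fold with the deposited values. Among all entries 25.4% were. miR-10b-3p was in the second class and miR-10a-3p in the dimmest, where 22.1% and 61.1% were past it. The others were in the third class, where 9.66% were. miR-351-5p, from Mir351 on the X chromosome, has the seed of the miR-125 family, as its sequence from RefSeq shows with the seed in capitals.
miR-351-5p: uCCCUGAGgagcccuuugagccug
It had 0.807 in EPO-MVs against 0.577 in MSC-MVs (380 and 258 steps), a ratio of 1.40, and was thus higher in EPO-MVs where miR-125b-5p was lower. On the log2 scale it was 0.77 above miR-125b-5p and 0.54 above miR-125a-5p, and under quantile normalization, the lowess correction or the pseudocount the differences went no lower than 0.55 and 0.40. The RefSeq table holds 5 mature miRNAs with this seed, and outside the members miR-351-5p was the only 1 found among the 680 entries matched to a RefSeq sequence.

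miR-10a-5p and miR-10b-5p belong to the wider miR-10/100 group, whose seeds differ from that of miR-99/100 (ACCCUGU against ACCCGUA). They had ratios of 0.795 and 0.776, each lower in EPO-MVs, with 155 and 185 steps for miR-10a-5p and 108 and 132 steps for miR-10b-5p. miR-670-5p, whose seed UCCCUGA overlaps that of miR-125 with a shift of 1 base, had 111 and 79 steps and a ratio of 1.33.

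The 3 entries of the brightest class outside these lists whose log2 ratio was nearest to the median of the -5p members (-0.28) were miR-221-3p (-0.28), miR-5129-5p (-0.28) and miR-17-5p (-0.28). With 2 arrays, likeness is a comparison of a single ratio.

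Marker miRNAs of several cell types were listed with their signals, which differ in brightness by probe and so do not show which cells contributed RNA. All 5 entries of a stromal list, among them miR-143-3p and miR-214-3p, were in the brightest class. Each of the 5 was lower in EPO-MVs, with ratios from 0.648 for miR-143-3p, past 1.5-fold, to 0.744 for miR-214-3p and a median log2 ratio of -0.49. Of the 6 entries of a haematopoietic list, 4 were in that class too, namely miR-142-3p, miR-142-5p, miR-223-3p and miR-451a. Whether RNA of blood cells or of serum contributed was not tested. Of 4 epithelial entries 0 were above the median brightness and 3 were past 1.5-fold as higher in EPO-MVs, while miR-429-3p was lower (0.712). Of these 4 entries 3 lie in the dimmest class, 61.1% of whose entries were past 1.5-fold, with 18 and 6 steps for miR-200c-3p as an example. In the same class, miR-122-5p, a liver miRNA found in serum, had 8 and 7 steps. The intensities of the stromal list summed to 79.0 in EPO-MVs against 114.7 in MSC-MVs (ratio 0.689), and those of the haematopoietic list to 67.6 and 79.9 (0.845). Within the haematopoietic list the directions differed, since miR-144-3p (1.75) and miR-150-5p (1.36) had the higher value in EPO-MVs, while miR-142-3p (0.900) and miR-223-3p (0.659) had the lower. The median log2 ratio of this list was -0.13. The epithelial list summed to 0.263 and 0.163 (1.61). The part of these lists in the members' ratios was not tested.

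**Figure D4:**
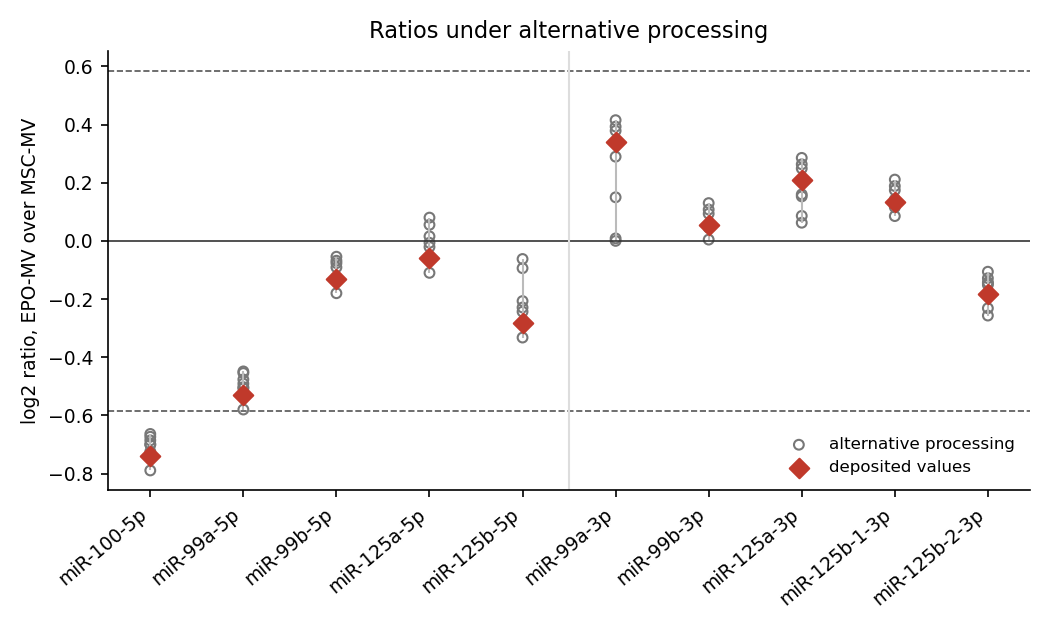
Log2 ratio of EPO-MV over MSC-MV of each member with the deposited values (red diamonds) and under 6 alternative scalings and a pseudocount (open circles, 7 for each entry), with dashed lines at 1.5-fold. miR-100-5p stays below the lower dashed line in each setting, the circles of miR-125a-5p lie on both sides of 0, and those of miR-99a-3p reach 0.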

How the data were processed

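RNA of EPO-MVs and MSC-MVs was labelled, hybridized to the miRCURY LNA Array, whose probes contain locked nucleic acids, and read by the authors with GenePix software. The deposited values are normalized intensities: the authors averaged replicate spots and divided by a median-based factor that used only miRNAs reaching 30 in every sample. Background subtraction and the channel read are not given in the sources used here. With 1 array per group, precision is limited by the number of arrays.

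Ratios (EPO-MV over MSC-MV) were taken for the 831 entries, with no filter and no pseudocount, and counted at 1.5-fold, after the fold change filter of the methods. The named entries were all members, the let-7a, let-7c and let-7e entries, the entries of miR-351, miR-670, miR-10a and miR-10b, and the 3 nearest in ratio. Members and lists were chosen with earlier results of these data known. Alternatives were thresholds of 2 and 1.2, re-centring on all or on the brighter entries, scaling to the 75th percentile, quantile normalization, removal of a lowess trend (span 0.4, 3 iterations), at least 30 or 60 steps on both arrays, a pseudocount of 0.0573 (the 25th percentile) and entries naming 1 miRNA. The ratio of steps was added after the values were seen. By name, 680 of 831 entries (81.8%) and all 10 members matched mature sequences of RefSeq (GRCm38.p6). The counting was tested on simulated data. Python 3.11.15, pandas 2.3.3, numpy 2.4.6, statsmodels 0.14.6 and matplotlib 3.10.9 were used.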

Additional observations from a re-analysis of the deposited data

How the results depend on the processing

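The number of members past the threshold, 1 with the deposited values, was 0 at 2-fold, beside 10.6% of all entries, and 4 at 1.2-fold, which the threshold itself explains. It was 1, miR-100-5p, in each of the 10 other settings, beside 6.5% (pseudocount) to 26.4% (ratio of steps) of the entries counted. However, 3 of these settings (both step minimums and the entries naming 1 miRNA) only remove other entries and cannot change its ratio. The 4 entries past 1.2-fold were miR-100-5p, miR-99a-5p, miR-125b-5p and, higher in EPO-MVs, miR-99a-3p, beside 55.4% of all entries. At least 30 steps on both arrays left 9 members, without miR-99a-3p. The median log2 ratio of the -5p members, -0.28, was -0.13 with quantile normalization and -0.068 after removal of the lowess trend, both of which make the arrays alike at each intensity by design. That of the -3p members was between 0.05 and 0.21. Of the 13 entries of let-7a, let-7c, let-7e, miR-10a, miR-10b, miR-351 and miR-670, 0 were past 1.5-fold with the deposited values. The number was 11 at 1.2-fold. After re-centring on all entries it was 2 (let-7a-5p and the shared entry of let-7a-1-3p and let-7c-2-3p, both lower). With quantile normalization it was 2, and 2 after removal of the lowess trend (let-7c-1-3p and that shared entry, both lower). It was 1 after re-centring on the brighter entries, with scaling to the 75th percentile and in the ratio of steps (miR-10a-3p, higher). The shared entry comes from genes outside the 3 clusters, and the seed of miR-10a-3p differs from those of the members. Beyond construction, the cause was not tested. No paired analysis was possible because each group had 1 array, and no array could be left out. Background was not measured, so no entry can be called above it.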
